A study of Homo sapiens with 17 samples.

Results

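Cells of SNU-761, an established line from a human liver carcinoma, were treated for 4 h with VT107 at 0.1 µM or with DMSO alone, and the RNA made during thiouridine labelling was counted gene by gene. The comparison rests on 4 of the 17 libraries of the study, chosen by their labels: 2 with VT107 at 0.1 µM and 2 with DMSO. The cells carry the label WT for genotype, received no other agent that the labels name, and were grown in serum-containing medium. A further 2 libraries from cells given VT107 at 2.15 µM for 4 h belong to the same experiment, and 1 library came from cells without thiouridine. A separate experiment on the same line, used here for levels and for 1 alternative fit, had 3 libraries each for intetumumab at 1.5 µg/ml, intetumumab at 5 µg/ml and an isotype IgG1 control at 5 µg/ml, all at 4 h. The intetumumab used was a biosimilar of this antibody to integrins with an ITGAV chain. The study is limited to 1 cell line, and the labels do not say whether replicates are separate cultures. The p-values of the main fit set differences against the spread between libraries of the same group. That spread was estimated over the 6 labelled libraries of the VT107 experiment, and it may be technical.

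VT107 inhibits all members of the TEAD family. TEAD proteins bind DNA and need a coactivator, YAP or TAZ, to switch genes on. The Hippo kinases keep YAP and TAZ out of the nucleus in dense or soft surroundings, and in liver this pathway restrains growth. TEAD sites often lie beside AP-1 sites in enhancers, and many of the genes that respond to YAP and TAZ are also early response genes, which cells switch on within minutes of a growth signal. SLAM-seq reads out such changes early: thiouridine enters new transcripts, iodoacetamide alkylates it, and the sequencer reads C where the genome has T. Reads with such T>C conversions are taken as new RNA.

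The counted genes carry Ensembl IDs and no symbols. The reference table used here pairs 0 of these IDs with a symbol. Known TEAD targets, early response genes and the gene for osteopontin were therefore not picked out by name. Any of them may be among the genes described below by ID or rank. Genes are given by ID, 2 in each direction, and otherwise by their rank in the comparison.

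The DMSO libraries held 1001568 and 1103024 counts, VT107 at 0.1 µM 846103 and 789214, and VT107 at 2.15 µM 1778876 and 1247990. Genes with at least 1 count numbered 11111 and 11715 with DMSO and 11342 and 11617 at 0.1 µM. The unlabelled library held 10702 counts, which was 1.14% of the mean of the 4 libraries compared. In each library the 100 genes with most counts took 21.4% and 21.8% of all counts with DMSO, and 19.1% and 18.8% at 0.1 µM. Both DMSO libraries therefore had more of their new RNA in a few abundant genes than both 0.1 µM libraries, and the 2.15 µM libraries had the least (17.8% and 17.9%). In the isotype libraries of the other experiment the share was 18.8% to 19.3%. This was within or next to the range at 0.1 µM and under that of DMSO. The gene with most counts alone took 2.67% and 2.96% with DMSO, and 1.69% and 1.47% at 0.1 µM. Part of the gap between DMSO and 0.1 µM thus lay in 1 gene, ENSG00000137331.

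No gene passed the test at 0.1 µM: edgeR's quasi-likelihood test called 0 of 10083 genes at an adjusted p under 0.05 (0% of those tested), with a smallest adjusted p of 0.0617. At an unadjusted p under 0.05, 603 genes (5.98%) were higher and 616 (6.11%) lower with VT107, against 504 in all expected without any change. DESeq2, given the same genes, called 183, of which 59 were higher and 124 lower, and it left some genes without an adjusted p. The values below therefore describe where these libraries differ most, and no single gene is called changed. Scaling by total counts in place of TMM (which scales libraries on their bulk of genes) raised the median log2 fold change of all genes from 0.01 to 0.12 and gave 793 higher and 448 lower genes, so 63.9% of them were higher against 49.5% under TMM. Which direction was more frequent over all genes thus depended on the scaling.

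Most genes moved little. The fitted difference was within 2-fold for 8358 genes (82.9%), and 418 of these had an unadjusted p under 0.05. It was between 2- and 4-fold for 741 higher and 628 lower genes, and over 4-fold for 235 higher and 121 lower ones. Genes with differences over 4-fold were mostly weakly counted: they had a median percentile by mean level of 7.49 on the higher side and 9.71 on the lower side.

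**Figure D1:**
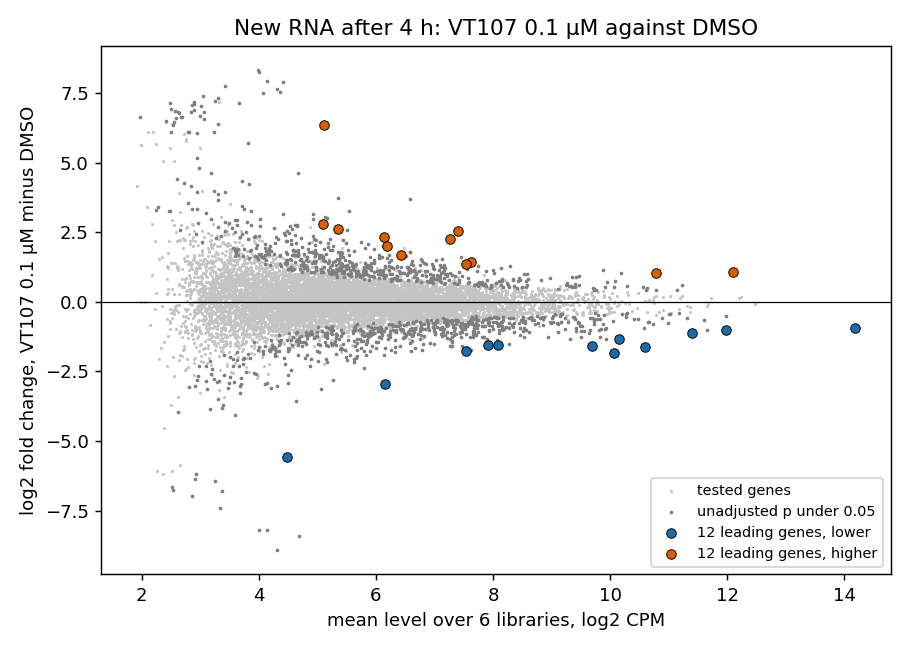
Each point is 1 of 10083 tested genes, with its mean level over the 6 libraries of the experiment (log2 counts per 1e6 after TMM scaling, CPM) on the horizontal axis and its fitted log2 fold change between VT107 at 0.1 µM and DMSO on the vertical axis. The spread narrows from left to right, and the 12 leading lower genes (blue) lie mostly at the right, at a median level percentile of 99.0, while the 12 leading higher genes (orange) have a median of 79.4.

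Abundant genes were lower more often than weakly counted ones under TMM. With genes ranked by mean level and cut into 4 equal bins, from the lowest to the highest, an unadjusted p under 0.05 went with lower values in 74, 97, 126 and 319 genes and with higher values in 129, 144, 153 and 177. In the top bin, above 93.4 CPM, 12.7% of genes were lower at that level, next to 6.11% of all genes, and 7.02% were higher, next to 5.98%. Under total count scaling the top bin held 226 lower and 261 higher genes, so the excess of lower genes there did not survive that choice. The lowest bin held 57 lower and 152 higher genes under that scaling, so the ratio of lower to higher genes was larger in the top bin than in the lowest under both scalings. Precision rose along the same axis, with a median standard error of the log2 fold change of 0.85 in the lowest bin and 0.29 in the top bin. Among the 100 genes with the highest mean level, 30 were lower and 14 higher at an unadjusted p under 0.05, with a median log2 fold change of -0.18, where the median of all tested genes was 0.01. These were 23 lower and 17 higher under total count scaling.

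**Figure D2:**
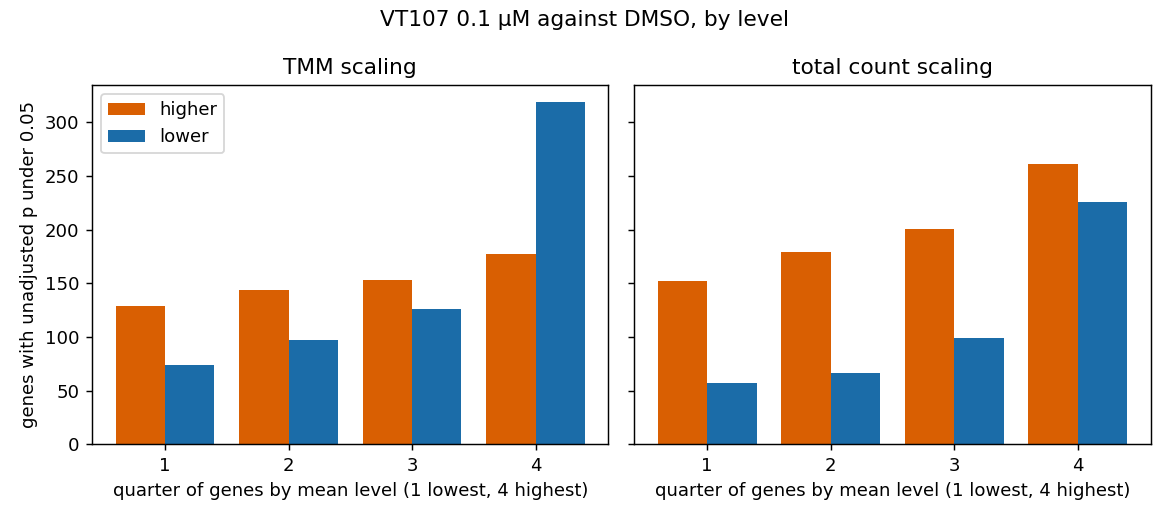
Bars give the number of genes with an unadjusted p under 0.05 that were higher (orange) or lower (blue) with VT107 at 0.1 µM than with DMSO, in 4 equal bins of genes by mean level, under TMM scaling on the left and total count scaling on the right. In the top bin 319 lower genes stand against 177 higher ones under TMM, and 226 against 261 under total count scaling.

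On the lower side, ENSG00000095752 had the smallest p. Its counts were 1619 and 2553 with DMSO and 524 and 443 with VT107 at 0.1 µM, or 1737 and 2467 against 617 and 556 CPM. Both treated libraries lay far below both DMSO libraries, and the DMSO pair was the less even of the 2 pairs. The mean went from 2102 ± 516 to 587 ± 42.9 CPM (SD, n = 2 each), 3.58-fold lower, with a log2 fold change of -1.84 (SE 0.21, edgeR adjusted p = 0.0617). At 2.15 µM it stood at 503 and 553 CPM, about the 0.1 µM level. The unlabelled library had 11 counts of it.

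ENSG00000137331 was the gene with the most counts in DMSO. It had 26750 and 32643 counts with DMSO and 14292 and 11582 at 0.1 µM, which is 2.82% ± 0.204 and 1.58% ± 0.157 of all counts. Its level was 28708 and 31549 CPM with DMSO, and 16834 and 14549 CPM at 0.1 µM. The groups did not overlap, and the fold was small, 1.92-fold lower (log2 fold change -0.94, SE 0.11, edgeR adjusted p = 0.0617). At 2.15 µM the level was 9125 and 10378 CPM, below both lower-dose libraries. Its 108 counts in the unlabelled library came to 0.507% of its mean in the 4 libraries.

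The 12 leading lower genes, those with the smallest p and groups that do not overlap, were mostly abundant. Of the 12, 9 were in the top 10% of tested genes by mean level, and 1 was below the median. Since 19.3% of all tested genes were lower without overlap, and these 12 were picked from the extreme of that set, their separation is how they were chosen and is given as a description. Their fitted log2 fold changes ran from -0.94 to -5.59 with a median of -1.57, and their edgeR adjusted p from 0.0617 to 0.0914. The 12 had 0 to 108 counts in the unlabelled library, and 1 had counts that were all multiples of 4, where fewer reads may stand behind the values if reads were counted repeatedly.

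Not all of them kept their low level at the higher dose. The fourth-ranked lower gene had 142 and 126 counts with DMSO, 16 and 13 at 0.1 µM, and 103 and 80 at 2.15 µM. In CPM these are 152 and 122, then 18.8 and 16.3, then 55.7 and 61.7, so the 2.15 µM libraries lay between the others. The tenth-ranked gene had 30 and 38 counts with DMSO, 1 and 0 at 0.1 µM, and 63 and 38 at 2.15 µM. Its level at 2.15 µM, 34.1 and 29.3 CPM, overlapped DMSO, at 32.2 and 36.7 CPM. With 68 counts against 1, its ratio was 56.9-fold, with a 95% exact interval of 9.87 to 2279 that covers counting error only. Its fitted log2 fold change ran from -8.36 without replicate 1 of the 0.1 µM group to -4.75 without replicate 2, the first of these against a group with no count, where the fit gives no bound. Both were picked for low values in the 0.1 µM libraries, so a level nearer to DMSO in other libraries is to be read as a description. The isotype libraries had 103, 122 and 135 counts of the fourth gene and 35, 43 and 37 of the tenth, so both genes were counted in every isotype library. In the intetumumab libraries, which also lacked VT107, the tenth gene had 5, 46 and 25 counts at the lower dose and 0, 41 and 20 at the higher dose, so single libraries without VT107 were also at or near 0.

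On the higher side, ENSG00000118785 led. It had 56 and 36 counts with DMSO and 248 and 202 at 0.1 µM, or 60.1 and 34.8 against 292 and 254 CPM. Both treated libraries were several times above both controls. The mean went from 47.4 ± 17.9 to 273 ± 27.1 CPM (SD, n = 2 each), 5.77-fold higher, with a log2 fold change of 2.53 (SE 0.33, edgeR adjusted p = 0.0761). At 2.15 µM it stood at 162 and 209 CPM, above DMSO and under the 0.1 µM libraries. The unlabelled library had 0 counts of it.

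ENSG00000189042 was nearly uncounted in DMSO. It had 0 and 1 counts there, 57 and 27 at 0.1 µM, and 72 and 88 at 2.15 µM. All 4 treated libraries were thus far above both DMSO libraries, while the 2 libraries at 0.1 µM differed from each other (67.1 and 33.9 CPM). Scaled for depth, 84 counts against 1 gave a ratio of 100.4-fold with a 95% exact interval of 17.5 to 4013 for counting error only (edgeR adjusted p = 0.0893). Its fitted log2 fold change ran from 5.56 without DMSO replicate 1 to 8.86 without DMSO replicate 2, the latter again against no count. In the isotype libraries it had 16, 39 and 36 counts, so cells without VT107 in the other experiment had it at a level near that of the treated cells.

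By mean level the 12 leading higher genes began at percentile 44.1. They had fitted log2 fold changes from 1.03 to 6.36 with a median of 2.14, and edgeR adjusted p from 0.0761 to 0.134. Of these, 2 were in the top 10% by level and 3 were below the median. They too were picked from the extreme of a large set, since 20.4% of all tested genes were higher without overlap. The 2 most abundant were the third and the eleventh in rank. The third of these genes had 1231 and 1198 CPM with DMSO and 2320 and 2631 CPM at 0.1 µM. The eleventh had 2938 and 2227 CPM with DMSO, and 5779 and 5138 CPM at 0.1 µM. In 9 of the 12 the unlabelled library had 0 counts, and 1 of the 12 had counts that were all multiples of 3.

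**Figure D3:**
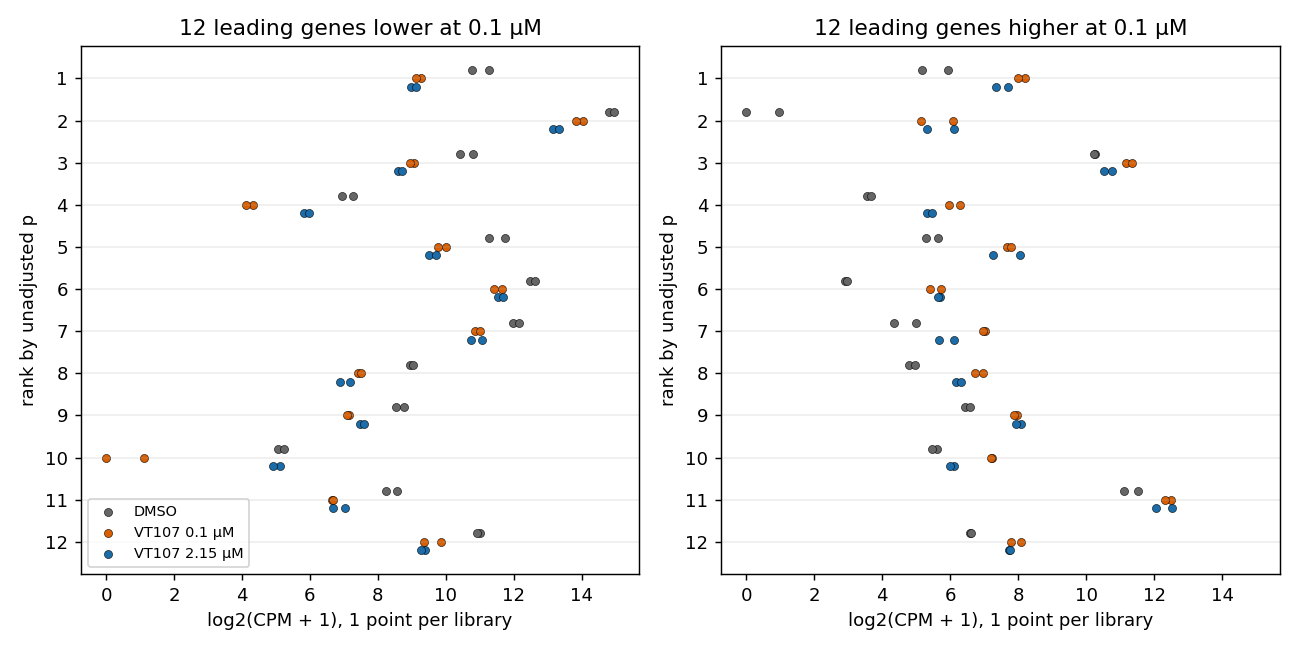
Each row is 1 of the 12 leading lower (left) or higher (right) genes, ranked by unadjusted p, and each point is 1 library, with log2(CPM + 1) on the horizontal axis for DMSO (grey), VT107 0.1 µM (orange) and VT107 2.15 µM (blue). The orange points lie apart from the grey ones in every row by choice, and the blue points of the tenth-ranked lower gene, at 34.1 and 29.3 CPM, lie with the grey ones.

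The values at the higher dose are set side by side with those at 0.1 µM as a description, since both doses share the DMSO libraries on which the 24 genes were picked, and that choice favours a like direction at 2.15 µM. The 12 lower genes had log2 fold changes from -1.99 to -0.12 at 2.15 µM (median -1.59, against -1.57 at 0.1 µM), and 6 of them passed edgeR's test there, as did 0.109% of all tested genes; from genes picked this way nothing can be read from the difference. The 12 higher genes had log2 fold changes from 0.41 to 6.43 at 2.15 µM (median 1.45, against 2.14 at 0.1 µM), and 0 passed, with 11 at an unadjusted p under 0.05, next to 5.28% of all tested genes that were higher at that level. The difference from DMSO was smaller at 2.15 µM than at 0.1 µM in 8 of the 12 higher and 5 of the 12 lower genes, all of them picked for extreme values at 0.1 µM. The tenth-ranked higher gene was at 148 and 147 CPM at 0.1 µM and at 68.2 and 62.5 CPM at 2.15 µM, against 48.3 and 43.5 CPM with DMSO. Its counts were all multiples of 3. With counts divided by common divisors, its SE at 0.1 µM went from 0.30 to 0.41 and its edgeR adjusted p from 0.134 to 0.206. With all labelled libraries scaled together, its isotype level was 352 ± 61.6 CPM, against 148 ± 0.923 at 0.1 µM. An isotype mean above that at 0.1 µM was found in 2 of the 12 higher genes.

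In the direct test of 2.15 against 0.1 µM, edgeR called 0 of 10083 genes (0%), with 0.886 as the smallest adjusted p. In 534 genes (5.3%) the unadjusted p was under 0.05, where 504 were expected without any change, and DESeq2 called 7 genes. Among the 24 leading genes, 3 lower and 3 higher ones had an unadjusted p under 0.05 between doses. ENSG00000137331 was one of them, with a log2 difference of -0.69 (edgeR adjusted p = 0.886). The 24 were chosen on the 0.1 µM libraries that this comparison also uses, so these 6 are a description.

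A few genes had counts on 1 side only. In 8 genes (0.0793% of those tested) there was no count in either DMSO library and at least 10 in both libraries at 0.1 µM. They had 20 to 56 counts in sum. Set against 3 counts over the DMSO group in place of 0, they were 7.97- to 22.3-fold higher at 0.1 µM. The 3 counts allow for counting error only, and replicate libraries spread more than that, so these folds are no lower bound. Choosing genes with 0 counts on 1 side and at least 10 per library on the other fixes in advance that the folds are large. None of the 8 was without counts at both 2.15 µM libraries, and 7 had counts in both. Their median level was 6.74 CPM at 2.15 µM, against 16.0 CPM at 0.1 µM. Of the 8, 5 also had counts in at least 1 isotype library. Conversely, 4 genes (0.0397%) had no count at 0.1 µM and at least 10 in both DMSO libraries, with 22 to 108 counts in sum. Set against 3 counts over the 0.1 µM group, they were 6.13- to 30.1-fold lower, with the same limits. All 4 were counted in both 2.15 µM libraries, at a median level of 8.71 CPM, against 25.6 CPM with DMSO. Of the 4, 3 had counts in at least 1 isotype library. In each set 2 genes had counts with a common divisor above 1, which was found in 15% of all tested genes.

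Levels in the isotype libraries show how the DMSO baseline compares with cells that got neither DMSO nor VT107 as labelled. With all 15 labelled libraries scaled together, ENSG00000095752 was at 384 ± 23.4 CPM with the isotype (n = 3), against 2112 ± 516 with DMSO and 588 ± 42.6 at 0.1 µM. ENSG00000137331 was at 5643 ± 314 CPM with the isotype, against 30269 ± 1976 with DMSO and 15723 ± 1609 at 0.1 µM. For both genes the isotype level was below every VT107 library, and DMSO stood highest. ENSG00000118785 was at 68.2 ± 14.6 CPM with the isotype, against 47.7 ± 18.0 with DMSO and 273 ± 27.0 at 0.1 µM, so here the DMSO and isotype libraries overlapped and those with VT107 at 0.1 µM stood above both. ENSG00000189042 was at 37.6 ± 15.8 CPM with the isotype, against 0.485 ± 0.686 with DMSO and 50.6 ± 23.5 at 0.1 µM. Among the 12 leading lower genes, the isotype mean was below that of DMSO in 9 and above it in 3. Among the 12 higher genes, it was above DMSO in 9 and below in 3. It lay beyond the 0.1 µM mean in 5 of the lower and 2 of the higher genes. The genes were picked partly on the DMSO libraries, which favours these directions. Since both doses are compared with 1 pair of DMSO libraries, a particular level in that pair and an effect of VT107 cannot be told apart, and the experiments differ in more than the agent.

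**Figure D4:**
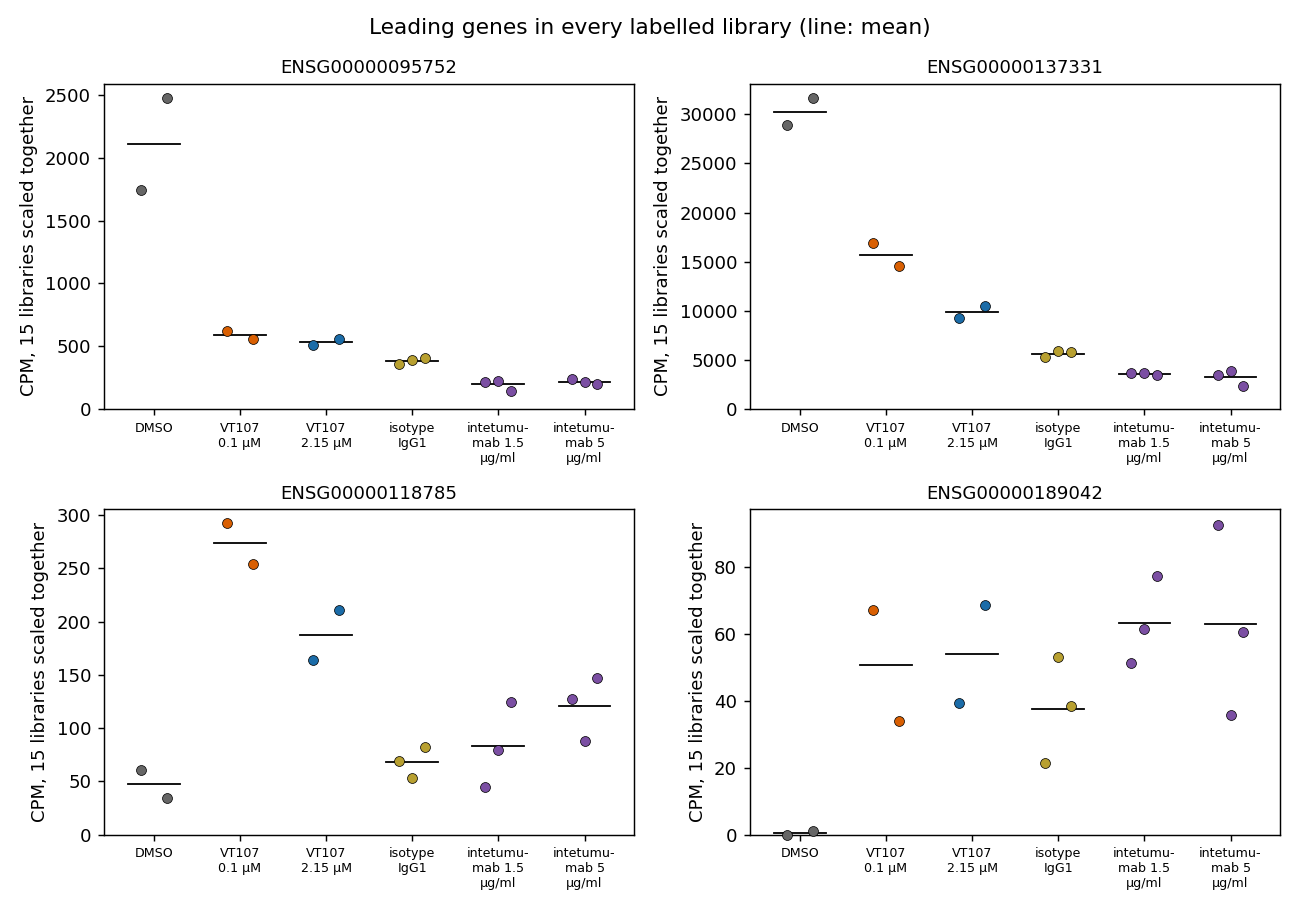
Points give the level of the 2 leading lower and the 2 leading higher genes in each of the 15 labelled libraries, in CPM with all libraries scaled together on a linear axis from 0, and lines give group means. ENSG00000118785 stands highest at VT107 0.1 µM (mean 273 CPM), while ENSG00000189042 is near 0 only with DMSO (mean 0.485 CPM).

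Of the 10083 tested genes, 213 had at least 10 counts in the unlabelled library, the background that arises without label. These included 44 of the 616 lower and 19 of the 603 higher genes at an unadjusted p under 0.05. The lower genes were the more abundant, with a median level percentile of 76.2 against 53.4, so the sets were not matched in level. The unlabelled count was above 1/3 of the mean in the 4 libraries compared in 22 of the 213, in 1 of the 44 and in 4 of the 19. With 1 unlabelled library these are values without a replicate check.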

How the data were processed

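The deposited table holds raw counts, which the authors made per gene with the SLAM DUNK pipeline from reads of newly made transcripts, per the series design text; libraries were 3′ QuantSeq, per the labels' protocols, and the build was GRCh38, per the submitters' processing notes. Not given in the sources used here are the annotation, the conversion threshold and how reads that match several genes were treated. All 6 labelled libraries of the VT107 experiment were fitted together with edgeR 4.0.16 in R 4.3.3: filterByExpr (minimum count 10, leaving 10083 of 19867 genes), TMM scaling, the quasi-likelihood F-test, two-sided, and Benjamini-Hochberg adjustment over all genes, with calls at an adjusted p under 0.05. Standard errors are the log2 fold change over the square root of F. The fit was tested on simulated data. Changes were made there only in genes above the median level, so the finding of changes in weakly counted genes was not checked. Alternatives, DESeq2 1.42.0 among them, are given below.

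Genes were singled out by rule: with fewer than 5 calls in a direction, the 12 smallest unadjusted p with groups that do not overlap. The rule, the comparison and 26 gene lists were chosen with earlier results of these data known. The lists need gene symbols and were not tested.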

Additional observations from a re-analysis of the deposited data

How the results depend on the processing

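The count of 0 genes at 0.1 µM held with edgeR under RLE size factors, total count scaling, the 4 libraries alone and division by common divisors, and depended on the method otherwise: DESeq2 called 183 genes, edgeR without the filter on low counts 171 and edgeR on all 15 labelled libraries 72. Leaving out any 1 library of the 2 groups gave 0 calls each time, with 1046 to 1743 genes at an unadjusted p under 0.05 (the most without DMSO replicate 2); the lone library left in a group is then assumed to vary like the other groups, and with 0 calls at the start this says little about stability. Of the 24 leading genes, 20 were called by DESeq2, 24 without the filter and 20 with all labelled libraries. Over all genes these fits called 183 of 10083, 171 of 13575 and 72 of 10227. The 24 were picked for a small p in these libraries, which favours their being called. DESeq2 gave the other 4 of the 24, ENSG00000189042 among them, no adjusted p, so it did not judge them. All 24 kept their sign under the 12 alternatives, which their choice from these libraries favours. Between doses, DESeq2 called 7 genes and the fit without a filter 4; every other setting gave 0, as did leaving out single libraries (0 each time). Same-numbered DMSO and 0.1 µM libraries showed no shared deviation (r = 0.0064 across genes), which does not tell what the numbers mean, and with the replicate block edgeR called 0 genes in either comparison (1035 and 448 at an unadjusted p under 0.05). Medians of gene lists were planned and not run, for want of symbols. Depth limits weakly counted genes most.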
